A study of Mus musculus with 10 samples.

Results

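Leptin and the cytokines of the interleukin-6 family signal through related receptors, and 9 genes of this system were followed in mouse left ventricle. They were the leptin receptor Lepr, the receptor chains Il6ra, Il6st, Osmr and Lifr, the transcription factor Stat3, and the inhibitors Socs2, Socs3 and Cish. The genes were selected on their function and on their measured FPKM differences between the CKD and Sham mice of these same libraries, and were matched by symbol to the table. All 9 had an entry of their own among 23303 listed genes, and all 9 were among the 11651 genes with a mean of at least 1 FPKM over the 10 libraries. FPKM, fragments scaled by transcript length and by the mapped fragments of the library, is a level per length, so genes can be set side by side roughly. A failed estimate or reads common to several genes can distort such a comparison. The ventricles came from 10 male mice of strain 129X1/SvJ. In the labels' surgery entry 5 mice were CKD (chronic kidney disease) and 5 were Sham. The labels list each mouse as a separate sample, and every spread and p value given here is over these samples. They gave neither the age of the mice nor the form of the kidney operation, and named no transgene, drug or batch. The series concerns uremic cardiomyopathy, in which kidney failure is accompanied by disease of the heart.

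As background, interleukin 6, leukemia inhibitory factor, oncostatin M and their relatives bind receptor complexes that share the chain gp130, the product of Il6st. The leptin receptor is built like gp130 and signals as a pair of its own chains. Both activate Janus kinases, which phosphorylate STAT3, and STAT3 then enters the nucleus and switches on genes that include Socs3. SOCS3 binds the activated receptors and shuts them off, while CISH and SOCS2 are feedback inhibitors best known from growth hormone and STAT5 signalling. In the heart, gp130 signalling is known for its part in cardiomyocyte growth and survival.

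The promoter windows of these genes were searched for the palindrome TTCNNNGAA, the core sequence that activated STAT dimers bind, where N is any base. The word reads the same on both strands. RefSeq windows of GRCm38.p6, from 250 bases before to 50 bases after an annotated start, were at hand for 8 of the 9 genes, Socs2 being the exception. The word occurred in 2 of the 10 windows of these 8 genes, those of Socs3 and Cish, and in 8.30% of 32851 windows of all genes. The Cish window held 2 copies, and 0.457% of all windows held 2 or more. These 2 stretches are shown because Socs3 and Cish are the textbook STAT-driven genes of the set. Capitals mark the matches, which are matches of letters and not measured binding sites. The Socs3 start used, chr11:117969366, lies inside the span of the gene in this annotation (chr11:117966079-117970336), and so does the printed stretch. That stretch is therefore not the sequence ahead of the whole gene.
Socs3 (chr11:117969492-117969540, minus strand, positions -174 to -126 from the start): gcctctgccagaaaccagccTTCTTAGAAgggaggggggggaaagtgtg
Cish (chr9:107296639-107296678, plus strand, positions -20 to 20): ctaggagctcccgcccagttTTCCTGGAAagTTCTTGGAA

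Facts of the libraries come first. Each library's FPKM summed to between 570509 and 605007. Relative depth was taken as the most frequent ratio between Sham 2 and each library, over genes low in both. It was sought only within a preset range around equal depth, and it was 0.852 to 1.14 times that of Sham 2. The number of reads behind each value is unknown. Libraries correlated at r = 0.97 to 0.99 on the log2 scale, and no 2 were identical. On the second principal component, with 17.4% of the variance, CKD 1 lay at 19.2 and Sham 1 at 22.1, and the other 8 libraries between -14.3 and 1.30. Heart muscle markers were abundant, with Myl2, the ventricular myosin light chain, at 16935 to 22199 FPKM. Myh6, the main myosin of adult mouse heart muscle, was listed at 0 in all 10 libraries. A listed 0 in this table can therefore be a failed estimate and does not show that a transcript was absent, which holds for Lep and Il6 too.

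Lepr had the largest fold difference of the 9 genes. Its level was 0.930, 0.503, 0.864, 0.866 and 0.761 FPKM in CKD 1 to CKD 5, and 2.09, 2.10, 2.68, 2.06 and 1.84 FPKM in Sham 1 to Sham 5. Every CKD mouse was below every Sham mouse, with a wide gap between the groups. The means were 0.785 ± 0.169 FPKM for CKD and 2.15 ± 0.312 for Sham (mean ± SD, 5 mice a group), so that mean FPKM was 2.74 times as high in Sham. On the log2(FPKM + 0.5) scale used for the fit across genes, the difference was -1.05 (SE 0.12). That scale shrinks differences near the pseudocount of 0.5, and with a pseudocount of 0.1 the difference was -1.36. In the order of all 11651 tested genes by this difference, Lepr was number 16 from the most negative. These differences chose the gene and are given as a description. Lepr passed the filter on the mean of all 10 libraries with the help of its Sham values, since its CKD mean was under the minimum of 1 FPKM. The table has 1 entry for Lepr, so the long form that carries the signalling tail and the short forms cannot be told apart. Because whole ventricle was sequenced, fewer cells that carry a transcript and less of it per cell cannot be told apart, for Lepr and for every gene that follows.

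The gene next to Lepr did not share its pattern. Leprot, which encodes the leptin receptor overlapping transcript protein, a membrane protein involved in receptor trafficking, lies upstream of Lepr on the same strand. In GRCm38, Leprot spans chr4:101647783-101659364 and Lepr spans chr4:101717137-101815352. The 60 bases before an annotated start of each gene are printed because the neighbours have separate starts in this annotation, and neither window holds TTCNNNGAA. The Lepr start used, chr4:101717407, lies inside the Lepr span just given, and so does its printed stretch.
Leprot (chr4:101647723-101647782, plus strand): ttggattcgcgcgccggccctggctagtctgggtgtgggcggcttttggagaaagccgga
Lepr (chr4:101717347-101717406, plus strand): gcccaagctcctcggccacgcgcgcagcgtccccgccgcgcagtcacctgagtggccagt
Leprot was at 34.3, 29.5, 30.3, 29.8 and 30.9 FPKM in CKD 1 to CKD 5, and at 32.0, 23.9, 23.7, 26.6 and 26.3 FPKM in Sham 1 to Sham 5. Sham 1 lay among the CKD mice, and the other 4 Sham mice lay below all of them. The log2 difference was 0.23 (SE 0.08) and limma did not call it (adjusted p = 0.134). It was called without Sham 1 (adjusted p = 0.0255), without both CKD 1 and Sham 1 (0.0272) and with sample weights (0.0347), and adjusted p ranged up to 0.280 over 21 alternatives. Set against Leprot in the same mouse, Lepr amounted to 2.53 ± 0.488% in CKD and 8.27 ± 1.91% in Sham (mean ± SD, 5 mice a group). The share was 1.71% to 2.90% in CKD and 6.53% to 11.3% in Sham, so the groups did not overlap. This separation follows from the Lepr values, on which the gene was chosen, and is given as a description.

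**Figure D1:**
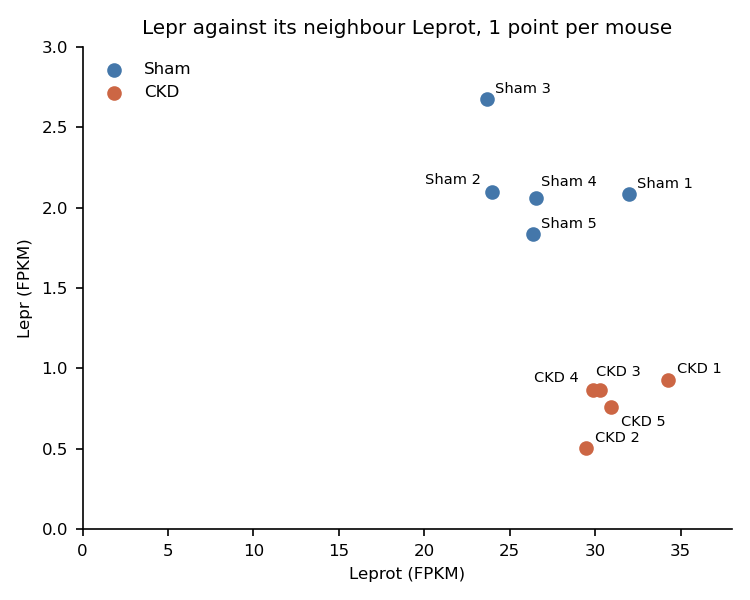
FPKM of Lepr (vertical axis) against FPKM of the neighbouring gene Leprot (horizontal axis), 1 point per mouse, coloured by group; both axes start at 0. The 5 CKD mice lie at 0.503 to 0.930 FPKM of Lepr and the 5 Sham mice at 1.84 to 2.68, while Leprot overlaps between the groups.

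The chain that all gp130 cytokines share was at nearly the same level in both groups. Il6st (chr13:112464070-112506860 in GRCm38) was at 44.6, 43.0, 45.7, 46.3 and 44.7 FPKM in CKD 1 to CKD 5, and at 43.8, 48.5, 44.9, 49.9 and 43.6 FPKM in Sham 1 to Sham 5. The groups overlapped (log2 difference -0.04, SE 0.05), and the spread within the CKD group, 1.28 FPKM, was the smallest of the 9 genes relative to its mean at 2.85%. Il6ra, the chain that binds interleukin 6 itself (chr3:89869324-89913196), was at 2.53, 2.24, 1.92, 2.11 and 3.08 FPKM in CKD 1 to CKD 5, and at 2.26, 2.56, 2.40, 2.63 and 1.92 FPKM in Sham 1 to Sham 5. Its groups also overlapped, with a log2 difference of 0.00369 (SE 0.12).

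The chains that pair with gp130 for oncostatin M and leukemia inhibitory factor differed from each other in the direction of their means. Osmr, the oncostatin M receptor (chr15:6813568-6874968), was at 10.4, 7.65, 8.03, 6.08 and 11.4 FPKM in CKD 1 to CKD 5, and at 6.56, 6.28, 5.88, 7.75 and 5.73 FPKM in Sham 1 to Sham 5. CKD 1, CKD 3 and CKD 5 stood above all Sham mice, CKD 2 and CKD 4 lay within the Sham range, and the groups overlapped (log2 difference 0.38, SE 0.15). Without CKD 5 that difference was 0.28, and without CKD 4 it was 0.50. Lifr, the leukemia inhibitory factor receptor (chr15:7090610-7197489), was at 8.68, 6.97, 7.67, 7.06 and 10.3 FPKM in CKD 1 to CKD 5, and at 9.43, 8.94, 9.47, 8.77 and 8.05 FPKM in Sham 1 to Sham 5. The highest value belonged to CKD 5 and the lowest to CKD 2, so the CKD mice spanned the whole Sham range (log2 difference -0.14, SE 0.10; -0.22 without CKD 5 and -0.09 without CKD 2). Relative to Il6st in the same mouse, Osmr reached 19.5 ± 4.94% in CKD and 13.9 ± 1.22% in Sham, and Lifr 18.2 ± 3.18% and 19.4 ± 1.77% (mean ± SD, 5 mice a group).

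Stat3, the transcription factor downstream of both leptin and gp130 receptors, was higher in every CKD mouse than in any Sham mouse. It lies at chr11:100886806-100939594 and was at 66.1, 62.4, 55.1, 54.5 and 60.8 FPKM in CKD 1 to CKD 5, and at 45.5, 47.5, 44.9, 45.2 and 51.0 FPKM in Sham 1 to Sham 5. Sham 5 came closest to the CKD mice. The means were 59.8 ± 4.91 and 46.8 ± 2.56 FPKM (mean ± SD, 5 mice a group), a log2 difference of 0.35 (SE 0.06).

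Of the inhibitors, Cish and Socs2 were both higher in every CKD mouse than in any Sham mouse. Cish (chr9:107296659-107302784) was at 64.8, 70.8, 69.9, 67.0 and 71.2 FPKM in CKD 1 to CKD 5, and at 42.2, 45.1, 60.4, 50.3 and 55.8 FPKM in Sham 1 to Sham 5. The CKD mice were tightly grouped and the Sham mice spread widely, with means of 68.8 ± 2.74 and 50.8 ± 7.46 FPKM (mean ± SD, 5 mice a group; log2 difference 0.45, SE 0.09). Socs2 (chr10:95383903-95417321) was at 27.0, 26.8, 31.7, 25.9 and 24.7 FPKM in CKD 1 to CKD 5, and at 23.0, 24.4, 22.5, 21.8 and 21.4 FPKM in Sham 1 to Sham 5. CKD 5 and Sham 2 almost met, and CKD 3 stood highest (log2 difference 0.26, SE 0.07). The Cish promoter stretch printed above holds the pair of STAT words, and whether STAT proteins occupied it was not measured.

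Socs3, the feedback inhibitor of gp130 and leptin receptors, was by contrast the most variable of the 9 genes. It lies at chr11:117966079-117970336 and was at 8.16, 9.81, 4.28, 9.56 and 7.71 FPKM in CKD 1 to CKD 5, and at 4.90, 24.3, 21.1, 7.79 and 3.37 FPKM in Sham 1 to Sham 5. Sham 2 and Sham 3 were far above all other mice, while the lowest value of all belonged to Sham 5, so the groups overlapped. The Sham SD was 78.9% of the mean for Socs3, against 5.14% to 14.7% for the other 8 genes. The log2 difference was -0.28 (SE 0.47), and it was 0.05 without Sham 2 and -0.62 without Sham 5.

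**Figure D2:**
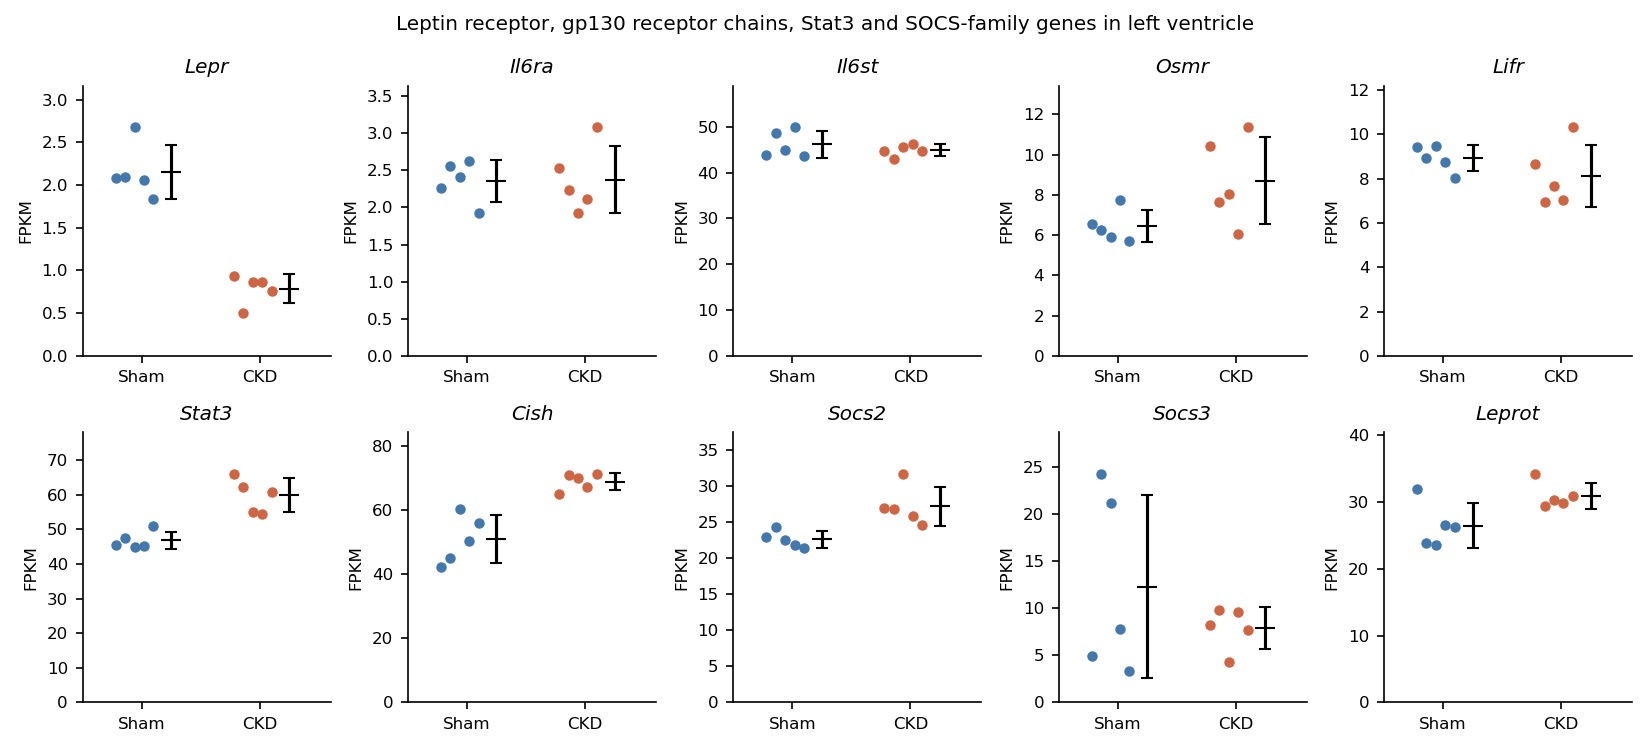
FPKM of the 9 genes and of Leprot in each left ventricle (points; 5 Sham, 5 CKD), and mean ± SD of each group as a bar at the side; all vertical axes begin at 0. The groups do not overlap for Lepr (lower in CKD) or for Stat3, Cish and Socs2 (higher in CKD), and the 2 high Sham points of Socs3 are Sham 2 and Sham 3.

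In the fit across all 11651 genes (limma, Benjamini-Hochberg adjusted p under 0.05), 3 of the 9 genes were called, 1 (Lepr) as lower and 2 (Cish and Stat3) as higher. Of all tested genes 5.29% were called, 3.17% as higher and 2.12% as lower. These 3 calls were made in every alternative run for them (20 for Lepr, 21 each for Cish and Stat3). Socs2 was not called in the fit as designed and was called in 4 of 21 alternatives, and Osmr in 1 of 21. The groups did not overlap for 4 of the 9 genes and for 7.28% of all tested genes, with CKD above for 3 of the 9 (4.10% of all) and below for 1 (3.18% of all). Because this contrast was known when the 9 genes were proposed, nothing is read from these counts. Without CKD 1 and Sham 1, the libraries that stood apart, the log2 differences of Lepr, Cish, Stat3 and Socs2 were -1.10, 0.40, 0.30 and 0.27, and those of Il6ra, Il6st, Osmr, Lifr and Socs3 were -0.03, -0.05, 0.32, -0.14 and -0.52. The order of the groups was thus kept for all but Il6ra, whose difference was near 0 on either side. The median log2 difference was 0.00369 over the 9 genes and -0.00345 over all tested genes.

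The order of levels differed between the groups in a few places. For Lepr, Cish and Stat3 this follows from the differences on which the genes were chosen, and it is given as a description. In Sham, Cish (42.2 to 60.4 FPKM), Stat3 (44.9 to 51.0) and Il6st (43.6 to 49.9) were highest with overlapping ranges, and Socs2 (21.4 to 24.4) followed. Socs3 (3.37 to 24.3), Lifr (8.05 to 9.47) and Osmr (5.73 to 7.75) came next, and Socs3 overlapped with Socs2 above it and with both receptors. Il6ra (1.92 to 2.63) and Lepr (1.84 to 2.68) were lowest and could not be ordered. In CKD, Cish (64.8 to 71.2 FPKM) and Stat3 (54.5 to 66.1) overlapped and both lay above Il6st (43.0 to 46.3). Lepr (0.503 to 0.930) lay below Il6ra (1.92 to 3.08) without overlap. Among all tested genes Lepr was a weakly expressed one, with 5.26% of them at a lower mean FPKM, against 85.6% for Il6st, 87.7% for Stat3 and 88.9% for Cish.

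Most ligands of these receptors were scarce in the ventricle. Lep, which encodes leptin itself, a hormone of fat cells, was listed at 0 to 0.0307 FPKM in CKD and 0 to 0.109 in Sham. Osm (oncostatin M) was at 0.110 to 0.569 FPKM in CKD and 0.111 to 1.00 in Sham, and Lif (leukemia inhibitory factor) at 0.246 to 0.358 and 0.296 to 0.652. Of 11 ligands and ligand partners listed, 4 reached the minimum mean for testing, and Cntf appeared only in an entry joined with other genes. Ctf1, cardiotrophin 1, a gp130 cytokine first described in heart muscle, was the most abundant of those listed, with CKD mice at 6.07 ± 2.03 FPKM and Sham mice at 7.53 ± 0.908 (log2 difference -0.34, SE 0.18, limma adjusted p = 0.328). Clcf1, which encodes cardiotrophin-like cytokine factor 1, averaged 1.23 ± 0.474 FPKM in CKD mice and 1.66 ± 0.271 in Sham mice (log2 difference -0.36, SE 0.19, adjusted p = 0.326). Cntfr, the ciliary neurotrophic factor receptor, at 0.849 to 1.28 FPKM in CKD and 0.421 to 1.36 in Sham, was below the minimum for testing. Ctf1, Clcf1 and Cntfr were singled out after their values were seen.

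**Figure D3:**
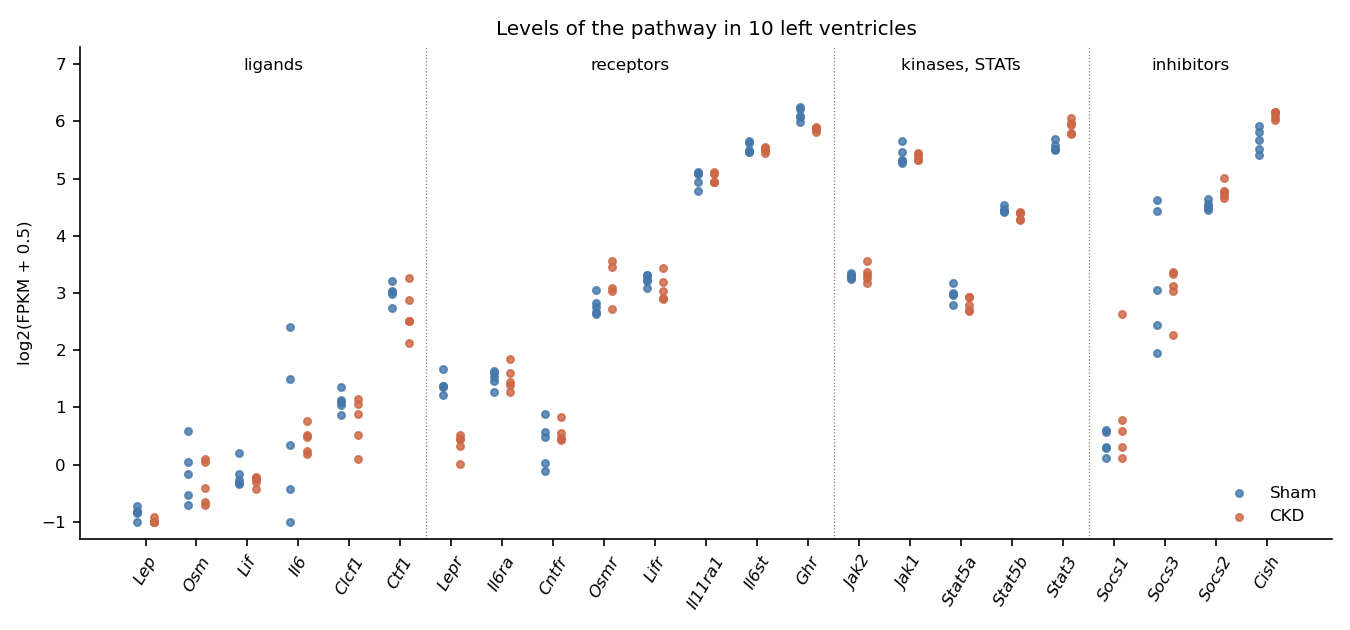
Levels of ligands, receptors, kinases, STAT factors and inhibitors as log2(FPKM + 0.5), 1 point per mouse (5 Sham, 5 CKD); a value of -1 is an FPKM of 0. Lep, Osm and Lif lie at the bottom of the scale, Il6st, Ghr, Stat3 and Cish near the top, and the groups do not overlap for Lepr, Ghr, Stat3, Socs2 and Cish.

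Other genes of the pathway came from 6 lists drawn up with earlier results of these libraries known, so their counts are not independent evidence. Of 87 such genes besides the 9, 68 were tested, and limma called 8 higher (11.8%) and 1 lower (1.47%), where 3.17% and 2.12% of all tested genes were called in these directions. Their median log2 difference was 0.05. The number higher was 5 without any 1 of CKD 3, CKD 5 or Sham 3. Among the Janus kinases and STATs 0 of 8 were called by limma, and 1, Stat2, had an unadjusted p under 0.05 (higher). Jak1, the kinase bound to gp130, averaged 41.4 ± 1.50 FPKM in CKD mice and 42.1 ± 5.00 in Sham mice (log2 difference -0.02, SE 0.07, adjusted p = 0.938; 0.05 without Sham 4), and Jak2, the kinase of the leptin and growth hormone receptors, at 9.64 ± 1.01 and 9.34 ± 0.277 (0.04, SE 0.07, adjusted p = 0.831; -0.02 without CKD 3). Stat5a (log2 difference -0.17, adjusted p = 0.272) and Stat5b (-0.10, adjusted p = 0.292) did not pass. Among the receptors, Il11ra1, the interleukin 11 receptor, averaged 31.6 ± 1.99 FPKM in CKD mice and 31.9 ± 3.07 in Sham mice and did not pass (log2 difference -0.00717, adjusted p = 0.977).

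Ghr, the growth hormone receptor, was the 1 gene called lower of the 68 tested pathway genes besides the 9. That is 1.47%, where 2.12% of all tested genes were called lower. Ghr was at 58.4, 55.7, 57.6, 58.5 and 59.6 FPKM in CKD 1 to CKD 5, and at 66.7, 67.7, 73.7, 75.5 and 63.0 FPKM in Sham 1 to Sham 5. All CKD mice were below all Sham mice, with a log2 difference of -0.25 (SE 0.05, limma adjusted p = 0.0218). The call did not hold when 1 mouse was left out, be it CKD 2, CKD 3, Sham 3 or Sham 4 (adjusted p up to 0.0627). Igf1, the hormone gene that growth hormone induces through STAT5, averaged 3.21 ± 0.870 FPKM in CKD mice and 2.69 ± 0.944 in Sham mice (log2 difference 0.24, SE 0.22, adjusted p = 0.612; 0.07 without Sham 2 and 0.13 without CKD 5). Igf1 was 1 of 7 tested targets of STAT5, of which limma called 0; 2 had an unadjusted p under 0.05, both higher, where 3.17% of all tested genes were called higher and 10.5% were higher at that p.

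Of 20 other inhibitors and adaptors limma called 1 higher (5%) and 0 lower, where 3.17% and 2.12% of all tested genes were called. The 1 called was Ptpn11, which encodes the phosphatase SHP2 that docks to gp130 and the leptin receptor. It averaged 79.4 ± 5.75 FPKM in Sham mice and 93.2 ± 5.25 in CKD mice (log2 difference 0.23, SE 0.06, limma adjusted p = 0.0462), and all CKD mice were above all Sham mice. That call held in 11 of 21 alternatives and failed when 1 mouse was left out, be it CKD 2, CKD 3, CKD 4, CKD 5, Sham 2, Sham 3 or Sham 4, with no filter on low values, with equal summed FPKM and with no variance trend (adjusted p up to 0.110). Socs1, an inhibitor induced by interferon, was at 5.69 FPKM in CKD 1, at 0.590 to 1.21 in CKD 2 to CKD 5 and at 0.584 to 1.01 over the Sham mice (log2 difference 0.51, SE 0.39, adjusted p = 0.524; 0.07 without CKD 1).

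Of 21 tested target genes of STAT3, limma called 6 higher and 0 lower, and at an unadjusted p under 0.05 the numbers were 9 and 0. This list too was drawn up with earlier results of these libraries known, so its counts are not independent evidence. Of all tested genes 3.17% were called higher and 2.12% lower, and 10.5% and 9.03% had an unadjusted p under 0.05 in these directions. Folds of these 6 genes are ratios of mean FPKM. Mt2, which encodes a metallothionein that binds zinc, was 3.02-fold higher, with 50.7 ± 16.3 FPKM in Sham mice and 153 ± 41.1 in CKD mice (limma adjusted p = 0.00207). Its neighbour and paralog Mt1 was 1.49-fold higher, with 360 ± 86.1 FPKM in Sham mice and 537 ± 75.1 in CKD mice (adjusted p = 0.0356). The assignment of reads common to both is unknown here. Timp1, an inhibitor of metalloproteinases, was 3.07-fold higher, with Sham mice at 3.55 ± 0.915 FPKM and CKD mice at 10.9 ± 3.91 (adjusted p = 0.00362). Fgl2, a fibrinogen-like protein of immune and endothelial cells, was 1.62-fold higher, with Sham mice at 28.9 ± 2.08 FPKM and CKD mice at 46.8 ± 8.65 (adjusted p = 0.00656). The acute phase genes Lbp, which encodes the lipopolysaccharide-binding protein, and Lcn2, which encodes lipocalin 2, were 1.75-fold and 1.93-fold higher. Lbp averaged 1.83 ± 0.263 FPKM in Sham mice and 3.20 ± 0.554 in CKD mice (adjusted p = 0.00888), and Lcn2 averaged 2.36 ± 0.702 and 4.56 ± 1.16 (adjusted p = 0.0234). Mt1 was called in 12 of 21 alternatives (adjusted p up to 0.107), and not without any 1 of CKD 1, CKD 3, CKD 5, Sham 1, Sham 3, Sham 4 or Sham 5, without both CKD 1 and Sham 1, or with no filter on low values. Lcn2 was called in 15 of 20 (adjusted p up to 0.0686), and not without CKD 3, CKD 5, Sham 2 or Sham 3, nor without both CKD 1 and Sham 1. All 6 are also known to respond to signals other than STAT3.

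**Figure D4:**
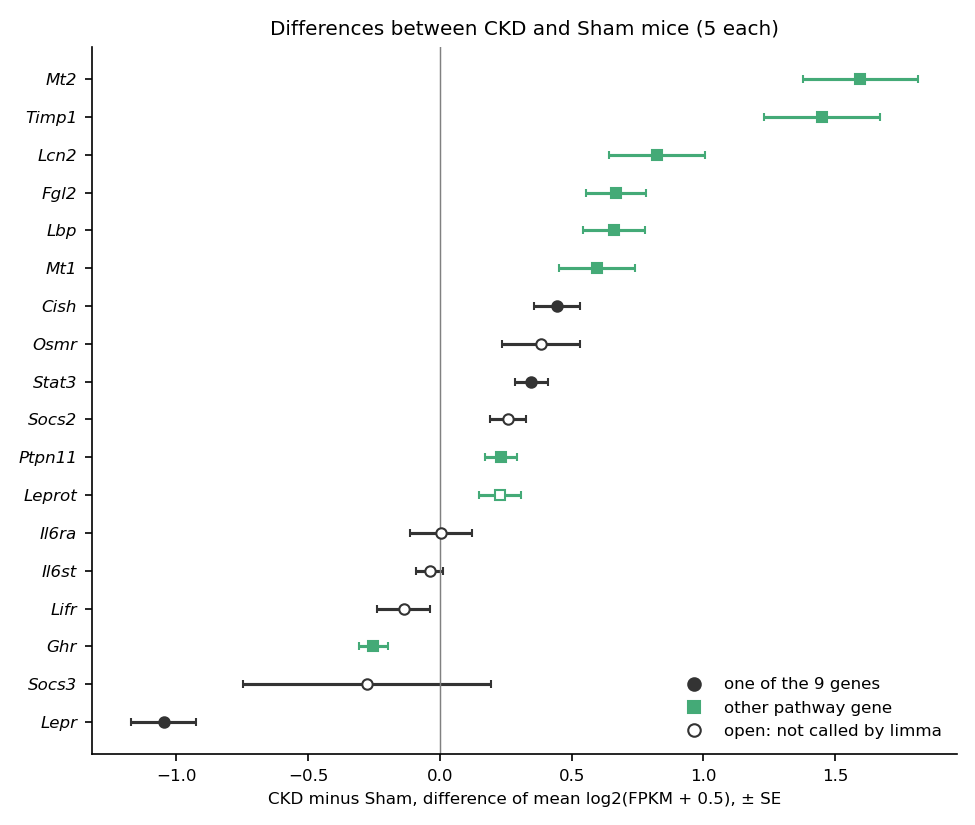
Difference of mean log2(FPKM + 0.5) between 5 CKD and 5 Sham mice with its SE for the 9 genes (circles), 8 of the pathway genes called by limma and Leprot (squares); open symbols were not called. Lepr has the most negative value, -1.05, and Mt2 the most positive, 1.60.

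Socs3 was not the only transcript of the pathway that was high in Sham 2 and Sham 3. Il6, the gene of interleukin 6, was at 0.243, 2.34, 4.82, 0.768 and 0 FPKM in Sham 1 to Sham 5, and at 0.642 to 1.20 in CKD (limma adjusted p = 0.936). The genes Fos, Junb, Cebpb and Irs2, also from the lists, were singled out after their values were seen. Fos and Junb, which cells switch on within minutes of a stimulus, were at 265 and 267, and at 214 and 152 FPKM in Sham 2 and Sham 3. The other 3 Sham mice had 36.3 to 121 FPKM of Fos and 48.8 to 83.3 of Junb, and the CKD mice 71.7 to 166 and 77.8 to 110. Irs2, an adaptor of the insulin receptor, was at 14.3 and 21.0 FPKM in Sham 2 and Sham 3 and at 1.78 to 3.07 in the other Sham mice. Cebpb, a transcription factor of inflammation, was at 52.0 and 69.9 FPKM against 23.5 to 46.6. The same pair of mice was highest for all 6 genes within the Sham group, which for Fos, Junb, Cebpb and Irs2 follows from their choice. Of other genes on the lists, Cebpd was likewise highest in Sham 2 and Sham 3 (28.0 and 22.2 FPKM). Ier3 was not, with 52.5, 58.0 and 28.3 FPKM in Sham 1, Sham 2 and Sham 3. The part of these genes in the Socs3 values was not tested.

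**Figure D5:**
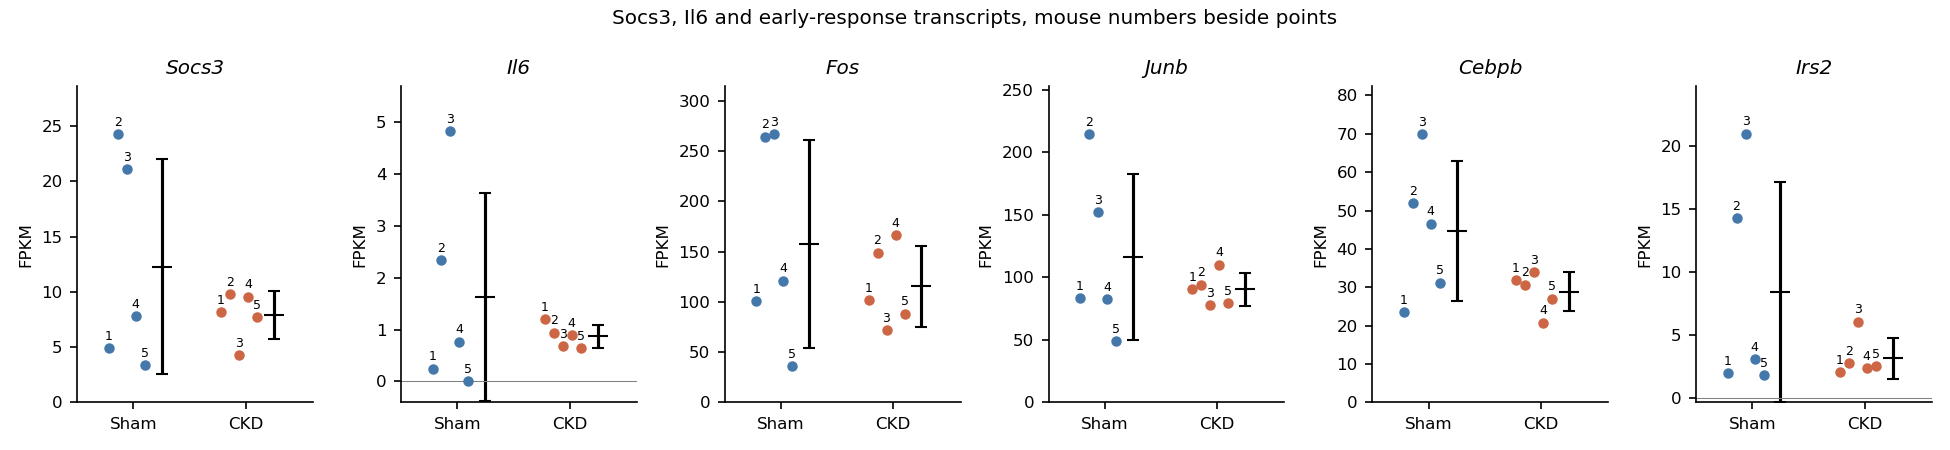
FPKM of Socs3, Il6, Fos, Junb, Cebpb and Irs2 in each mouse (points, numbered within the group), and mean ± SD as a bar at the side; where the SD reaches below 0 the axis extends below 0. Sham 2 and Sham 3 are the highest 2 Sham mice in each panel.

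Joint variation from mouse to mouse within groups was examined for 7 pairs of the 9 genes, and no pair passed. For these pairs of functional partners, log2 deviations from the group means were correlated over the 10 mice, with exact two-sided permutation within groups and adjustment over the 7 pairs. The largest Pearson coefficient was for Il6ra and Il6st (Pearson r = 0.32, exact permutation p = 0.328, adjusted p = 0.892; Spearman rho = 0.41, exact permutation p = 0.226, adjusted p = 0.773). It was 0.26 without the 2 mice farthest from the median of Il6ra. Socs2 and Cish, both higher in CKD, gave r = -0.26 (exact permutation p = 0.341, adjusted p = 0.892; rho = -0.52, exact permutation p = 0.131, adjusted p = 0.773), and -0.45 without the 2 mice farthest from the median of Socs2. Stat3 and Socs3 gave r = -0.10 (exact permutation p = 0.747, adjusted p = 0.892; rho = -0.10, exact permutation p = 0.757, adjusted p = 0.891), and -0.29 without 2 mice. Lepr and Socs3 gave r = 0.30 (exact permutation p = 0.437, adjusted p = 0.892), and 0.43 without the 2 mice farthest from the median of Lepr. Their Spearman rho was 0.35 (exact permutation p = 0.381, adjusted p = 0.773). The adjusted permutation p of the remaining pairs, Osmr with Il6st, Lifr with Il6st and Osmr with Socs3, lay between 0.892 and 0.983 for r.

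The genes whose deviations from the group means were most like those of Lepr were ranked as a description, over 10 mice and 10789 of the 11651 tested genes. Joined entries and clone, model and small RNA names were left out by the form of the symbol. That rule also removed every other gene whose symbol begins with Rn. The highest r belonged to Med30, a subunit of the Mediator complex (0.90), Procr, the endothelial protein C receptor (0.89), and Ccne2, a cyclin (0.88). The lowest belonged to Zfp13 (-0.90), Tns3, a focal adhesion protein (-0.89), and Tprn (-0.87). With so few mice, coefficients of this size stand at both ends of the ranking, and limma called none of these 6 genes between CKD and Sham (adjusted p from 0.174 to 0.977).

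Markers of cell types differed between the groups in part. They are given because receptors and targets of this pathway are expressed in several cell types of the heart. The marker lists too were chosen with earlier results of these data known, so their counts are not independent evidence. For comparison, 3.17% of all tested genes were called higher and 2.12% lower, and 10.5% and 9.03% had an unadjusted p under 0.05. Of 11 tested fibroblast markers 6 were called higher and 0 lower, with a summed level of 1377 to 1589 FPKM in CKD and 1234 to 1354 in Sham, while Pdgfra, the receptor that defines these cells, was at 10.3 to 13.2 and 10.3 to 12.0. Of 9 tested macrophage markers 5 were called higher and 0 lower, with a summed level, over the 11 markers in the table, of 380 to 549 FPKM in CKD and 268 to 325 in Sham. Of 12 endothelial and endocardial markers limma called 0, and 0 had an unadjusted p under 0.05, at a sum of 458 to 547 FPKM in CKD and 444 to 507 in Sham. Of 11 pericyte and smooth muscle markers 0 were called and 5 had an unadjusted p under 0.05 (3 higher, 2 lower), with sums of 1622 to 1808 and 1407 to 1700 FPKM. Of 4 tested neutrophil markers 0 were called, and 1 was higher at an unadjusted p under 0.05. Neutrophil markers summed to 14.8 to 60.1 FPKM in CKD, highest in CKD 5, and 7.97 to 31.0 in Sham, with Ngp, Camp and Ltf at 0.192 FPKM or less. Of 7 fat cell markers 2 were tested, Fabp4 and Cfd, and 0 were called (0 at an unadjusted p under 0.05). Their summed level, 933 to 1491 FPKM in CKD and 1122 to 1343 in Sham, was nearly all Fabp4 (929 to 1490 and 1120 to 1339), which capillary endothelium also expresses. The defining fat cell genes Adipoq and Plin1 were at most at 0.730 and 0.251 FPKM. Of 11 tested cardiomyocyte markers 0 were called, with 2 higher and 1 lower at an unadjusted p under 0.05. The 1 tested marker of T, B and NK cells was not called (log2 difference -0.70, lower at an unadjusted p under 0.05). Of 4 tested mesothelial and epicardial and 3 tested Schwann and nerve markers 0 were called. The part of these cell types in the values of Lepr, Osmr, Stat3, Cish and the STAT3 targets was not tested.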

How the data were processed

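The deposited table holds 1 FPKM value per gene and library, for the left ventricles of 5 CKD and 5 Sham mice. Per the labels' protocols, poly-A libraries (TruSeq mRNA) were sequenced as 100-base single reads. STAR 2.4.0f1, Cufflinks 2.1.1 and Cuffdiff 2.1.1 and the builds mm10 and hg19 are named in the submitters' processing notes without roles. Strand use and the treatment of shared reads are not given in the sources used here, and FPKM carries no read counts.

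Differences were fitted on log2(FPKM + 0.5) with limma 3.58.1 in R 4.3.3 (intensity trend, Benjamini-Hochberg adjusted p under 0.05) over the 11651 genes with a mean of at least 1 FPKM. The scripts were tested on simulated data. Groups came from the labels, and numbers 1 to 5 follow accession order. The 9 genes and all lists were chosen with earlier results of these data known. For the CKD and Sham differences of the 9, no p is therefore given, only whether limma called them. Named beside the 9 were the pathway genes called (1 is not reported here), Leprot, Lep, Il6, Osm, Lif, Il11ra1, Jak1, Jak2, Stat5a, Stat5b, Socs1, Ghr and Igf1, and the 3 genes at each end of the likeness to Lepr. Sequences and coordinates came from RefSeq (GRCm38.p6). Alternatives changed the pseudocount, filter, scaling, variance model and libraries.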

Additional observations from a re-analysis of the deposited data

Results flagged for a closer look

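In 1 of 54 groups of 5 values, Socs1 in the CKD mice, the highest value stood apart from the others by more than Dixon's 95% limit. Chance passes that limit in about 1 of 20 groups. Socs1 was at 5.69 FPKM in CKD 1 and at 0.590 to 1.21 in CKD 2 to CKD 5. In the same mouse Stat2, a transcription factor of interferon signalling, was at 20.4 FPKM, with the other 4 CKD mice at 5.91 to 6.82. It was looked up after the value of Socs1 was seen. CKD 1 was also 1 of the 2 libraries apart on the second principal component. The part of these values in the Socs1 level was not tested.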

How the results depend on the processing

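All 10 libraries gave 369 genes higher and 247 lower in CKD. Leaving out 1 mouse gave 201 to 384 higher and 131 to 290 lower, with the fewest higher without Sham 3 (201), CKD 2 (223), Sham 4 (235), CKD 5 (236) and Sham 2 (244), and the fewest lower without CKD 2 (131), Sham 3 (140), CKD 5 (142), CKD 3 (156), Sham 4 (162) and Sham 2 (163). Sample weights gave 511 higher and 400 lower, and the cause was not tested. Pathway genes called higher, 8 in all libraries, numbered 5 to 11 without 1 mouse and 5 with a minimum of 5 FPKM, which tests fewer genes; the 1 called lower, Ghr, became 0 without CKD 2, CKD 3, Sham 3 or Sham 4. Lepr kept its sign in all 20 alternatives and lay between -1.36 and -0.82 with pseudocounts of 0.1 and 1.

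Signs turned for differences near 0 or with a large spread. Il6 was at 0.22 with a pseudocount of 0.1 and between -0.52 and 0.34 without 1 mouse (0.11 without Sham 2, 0.34 without Sham 3). Without 1 mouse Il11ra1 lay between -0.062 and 0.021, Jak1 between -0.051 and 0.048, and Jak2 between -0.016 and 0.077. The correlation of Lifr with Il6st was 0.087 without both CKD 1 and Sham 1. The cause was not tested. No paired analysis was possible because the labels number the libraries across both groups and pair no CKD mouse with a Sham mouse.

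Without read counts, the counting error of low values such as those of Lepr and Il6 is unknown. Isoforms, protein levels and phosphorylation of STAT3 were not measured in these files, and cell types were not separated.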

Other observations

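Several genes of the lists lay near the threshold and are given as values, chosen after they were seen. Ptpn1, the phosphatase PTP1B that acts on Janus kinases bound to the leptin receptor, averaged 6.81 ± 0.579 FPKM in CKD mice and 5.68 ± 0.322 in Sham mice (mean ± SD, 5 mice a group). All CKD mice were above all Sham mice, but limma did not call it (log2 difference 0.24, adjusted p = 0.0776). Serpina3n, a protease inhibitor of the acute phase, averaged 44.2 ± 19.4 FPKM in CKD mice and 25.6 ± 1.12 in Sham mice, again without overlap and without a call (0.69, adjusted p = 0.0843). Gab1, a docking protein that links gp130 to SHP2, had a difference of -0.28 (limma adjusted p = 0.0960).

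The cytokine subunit gene Il27, also singled out after its values were seen, was listed at 0 in all 5 Sham libraries and at 0, 0.151, 0.151, 0.177 and 0.190 FPKM in CKD 1 to CKD 5. A listed 0 does not show that the transcript was absent, and Il27 was below the minimum for testing. Its partner Ebi3 ranged from 0.363 to 0.586 FPKM in CKD mice and from 0.112 to 0.784 in Sham mice.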
